A study of Mus musculus with 3 samples.

Results

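Heat shock proteins and their DnaJ cochaperones were read in mouse bone marrow-derived dendritic cells after 24 h with PTX, LPS or PBS. The members were taken as the probe sets whose only gene symbol in the platform annotation starts with Hsp or Dnaj. This gave 176 of the 45101 probe sets on the array and 73 of 18193 genes, of which 29 were Hsp genes and 44 were Dnaj genes. The stress-inducible Hspa1a is described apart from the other members, which are mostly constitutive.

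Heat shock proteins are molecular chaperones that bind unfolded polypeptides and help them fold, cross membranes or be degraded. Hsp70 proteins work through cycles of ATP hydrolysis, DnaJ proteins deliver substrates to them and trigger hydrolysis through their J domain, and Hsp110 proteins and other exchange factors let the substrate go. Heat, oxidants and proteotoxic stress raise Hspa1a and Hspa1b through the transcription factor Hsf1, whereas the endoplasmic reticulum (ER) chaperones answer to the unfolded protein response.

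The PTX culture was given PTX at 100 ng/mL, an abbreviation that the labels do not spell out, and its strain label reads C57BL/7. The LPS culture received 1 µg/mL of lipopolysaccharide, which bacteria carry and Toll-like receptor 4 senses, and the PBS culture was the control. The strain label of the LPS and PBS cultures reads C57BL/6. All cells came from the marrow of female mice aged 6 weeks, were grown with GM-CSF at 20 ng/mL and were the nonadherent cells of day 7. Each treatment had 1 array, so no spread between replicates could be estimated, no test was possible and differences are described by their size. Precision is limited by having so few arrays. The labels do not say whether the cultures shared a mouse or a marrow preparation, so such a difference cannot be told apart from one between treatments. Both stimuli were set against the same PBS array.

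The median deposited intensity over probe sets other than controls was 86.9 (PTX), 65.3 (LPS) and 85.7 (PBS). The arrays differed in 18S ribosomal RNA as well, whose 5′ probe set read 9946 (PTX), 1514 (LPS) and 6788 (PBS), while its 3′ probe set read 1970, 2958 and 1766 in that order of arrays. Of 10 dendritic cell markers all 10 were measured, including the integrin gene Itgax and the MHC class II gene H2-Ab1, with summed intensities of 31730 (PTX), 41263 (LPS) and 27880 (PBS). Itgax itself was highest on the PBS array, with 1294 (PTX), 1691 (LPS) and 2383 (PBS). Markers of macrophages and monocytes were measured too, 10 of 10, with sums of 43138 (PTX), 46488 (LPS) and 28515 (PBS). The sums hide genes that ran otherwise, such as Mrc1, with 472 (PTX), 94.0 (LPS) and 441 (PBS). In PTX against LPS 5 of the 10 were at least 2-fold higher, and 4 were lower by less than 2-fold. Of all measured genes 13.7% were at least 2-fold higher in that comparison. Among 10 neutrophil markers 7 were measured, with sums of 13960 (PTX), 17975 (LPS) and 17820 (PBS), and Elane and Mpo did not reach the level for a measured gene on any array. Others were bright, among them Mmp8 with 7190 (PTX), 5863 (LPS) and 7073 (PBS), and S100a8 with 4007, 9306 and 6074 in that order. In PTX against PBS Csf3r was at least 2-fold higher (2.07) and S100a9 lower (-1.82), and 5 of the 7 were within 2-fold. Of all measured genes 3.04% were higher and 2.37% lower in that comparison. Lineage markers of T cells (4 of 9 measured, sums 479.1 to 722.5), B cells (1 of 6, sums 198.6 to 241.8) and erythroid cells (1 of 7, sums 208.7 to 270.5) were dim. The 8 mast cell and eosinophil markers, 5 of them measured, summed to 450 (PTX), 2264 (LPS) and 695 (PBS). Most of the LPS sum came from Prg2 (1274) and Cpa3 (550), and Siglecf ran the other way, with 63.1 (PTX), 43.9 (LPS) and 250 (PBS). The part of other cells in the results below was not tested, and in a bulk sample fewer cells of a type and less RNA per cell cannot be told apart.

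Differences are given as log2(intensity + 16), so that a difference of 1 is 2-fold on that scale, and those of dim genes are shrunken. A gene with several probe sets was read from the one with the highest mean log2 value, and was taken as measured if 1 or more arrays gave that probe set an intensity of 78.9 or above, which is the median over all arrays with control probe sets left out. Of the 73 members 61 were measured, 22 Hsp genes and 39 Dnaj genes, among 12299 measured genes in all. The 12 others were Hspa1l, Hspa12b, Hspb2, Hspb3, Hspb7, Hspb8, Hspb9, Dnaja4, Dnajb3, Dnajb7, Dnajc5g and Dnajc6, and the brightest chosen reading among them was 62.1, for Dnajb3 on the LPS array. Of the 8 small heat shock protein genes 5 were thus below that level.

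Hspa1a, the inducible cytosolic Hsp70, read 30.6 (PTX), 432 (LPS) and 399 (PBS). It was low on the PTX array alone, where it lay under the level for a measured gene, and the LPS and PBS readings were close to each other. Its log2 difference was -3.15 for PTX against PBS, 0.11 for LPS against PBS and -3.26 for PTX against LPS. Of all measured genes 2.37% were at least 2-fold lower in PTX against PBS. Hspa1a had only 1 probe set.

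Hspa1b encodes a nearly identical inducible Hsp70 from a neighbouring gene, and cross-hybridization between the paralogs cannot be told apart from their own signal. Its 3 probe sets read 175, 80.8 and 44.0 on the PTX array, 342, 187 and 71.4 on the LPS array, and 1032, 696 and 379 on the PBS array. All 3 were lowest on the PTX array, intermediate on the LPS array and highest on the PBS array. In PTX against PBS they differed by -2.46, -2.88 and -2.72, and in LPS against PBS by -1.55, -1.81 and -2.17. Both paralogs were lower in PTX against PBS but they differed in LPS against PBS, where every Hspa1b probe set was at least 2-fold lower and the Hspa1a probe set was not. In PTX against LPS the Hspa1b probe sets differed by -0.91, -1.07 and -0.54, against -3.26 for Hspa1a.

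**Figure D1:**
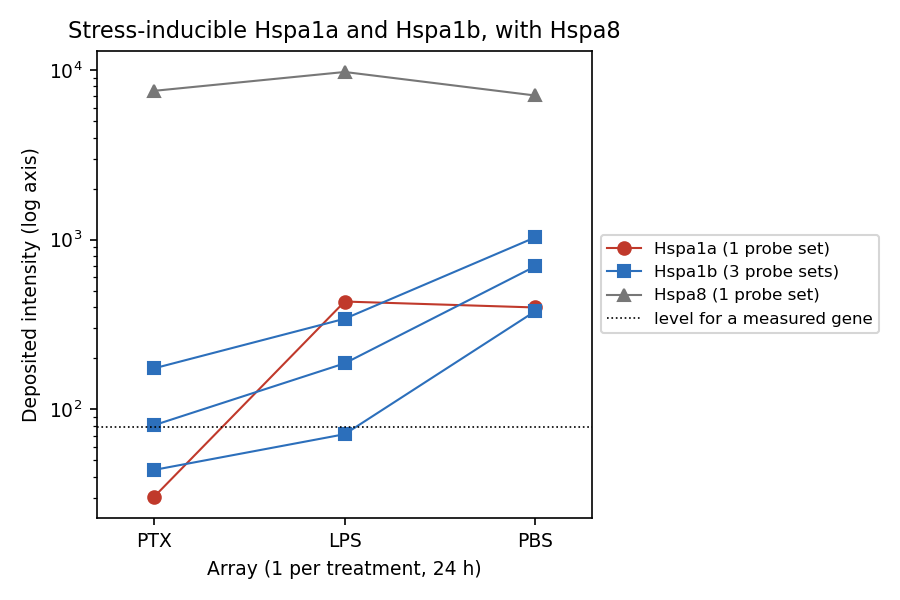
Deposited intensity (log axis) on the PTX, LPS and PBS arrays for the Hspa1a probe set, the 3 Hspa1b probe sets and the chosen Hspa8 probe set, with 1 line per probe set to be read along the arrays. Hspa1a is low on the PTX array alone (30.6), the Hspa1b lines climb from left to right on all 3 probe sets, and Hspa8 reads 7543, 9740 and 7079.

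Immediate early genes, which respond within minutes to stimulation and handling, were read as a list of 9, all measured. In PTX against PBS 3 were at least 2-fold lower, namely Egr1 (-2.17), Fosb (-1.87) and Dusp1 (-1.08), and 6 were within 2-fold. In LPS against PBS 3 were lower, namely Egr2 (-1.63), Atf3 (-1.61) and Fosb (-1.24). Of all measured genes 2.37% were at least 2-fold lower in PTX against PBS and 13.0% in LPS against PBS. Egr1 read 245 (PTX), 592 (LPS) and 1160 (PBS), the same order of arrays as the Hspa1b probe sets. Fos and Fosb had this order too, but the other genes of the list did not. Of all 12299 measured genes 1118 had it, as did 11 of the 61 measured members. Jun, Ier2 and Dusp1 were highest on the LPS array, Atf3 and Junb on the PTX array, and Egr2 was lowest on the LPS array. The part of handling in the Hspa1a and Hspa1b readings was not tested.

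The sequences before the starts of Hspa1a and Hspa1b are shown because the paralogs read alike in one comparison and apart in another. Sequences are the 250 bases before each RefSeq transcription start in GRCm38.p6, and capitals mark matches to the core of the heat shock element, the binding motif of Hsf1, searched as GAANNTTC or TTCNNGAA, each of which reads the same on both strands. The Hspa1a window lies at chr17:34972157-34972406, minus strand, and the Hspa1b window at chr17:34959239-34959488, minus strand.
Hspa1a: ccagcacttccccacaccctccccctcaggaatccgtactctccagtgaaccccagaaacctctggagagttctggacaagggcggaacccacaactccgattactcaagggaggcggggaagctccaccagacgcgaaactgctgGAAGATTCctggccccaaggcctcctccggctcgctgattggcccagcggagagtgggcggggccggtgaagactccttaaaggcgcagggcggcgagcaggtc
Hspa1b: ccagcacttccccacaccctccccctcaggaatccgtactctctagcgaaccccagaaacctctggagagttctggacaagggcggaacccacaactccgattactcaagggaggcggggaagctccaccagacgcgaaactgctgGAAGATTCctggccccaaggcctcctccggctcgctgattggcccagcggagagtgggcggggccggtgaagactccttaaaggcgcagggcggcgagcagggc
The 2 windows differed at 3 of 250 bases (98.8% identical), and both hold the same core, which ends 96 bases before the start. A match is a description of the letters and not evidence of binding.

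A window was found for 60 of the 73 members, 15 of which had several. The 13 without one include Hsp90aa1, Hspa8, Hspa9, Hspa13 and Dnajc5b, which the counts below thus leave out. The core was present in 14 of these 60 genes and in 16 of 77 member windows (20.8%), against 12.8% of all 32851 windows of the table. The joined form, with 3 units of GAA and TTC in turn set 2 bases apart, was found in 4 member windows (5.19%) and in 0.466% of all windows. It contains the core by construction. Its 3 genes were Dnajb6, Hspd1 and Hspe1, of which the last 2 share a bidirectional promoter, so that their windows overlap on opposite strands. The 2 Dnajb6 windows overlap as well and hold the same match, so the 4 windows hold only 2 separate stretches. The Hspe1 window (chr1:55087898-55088147, plus strand) is shown with the Hsph1 window (chr5:149636316-149636565, minus strand), since both genes were higher on the LPS array than on either other array. The capitals of Hspe1 are 3 overlapping cores.
Hspe1: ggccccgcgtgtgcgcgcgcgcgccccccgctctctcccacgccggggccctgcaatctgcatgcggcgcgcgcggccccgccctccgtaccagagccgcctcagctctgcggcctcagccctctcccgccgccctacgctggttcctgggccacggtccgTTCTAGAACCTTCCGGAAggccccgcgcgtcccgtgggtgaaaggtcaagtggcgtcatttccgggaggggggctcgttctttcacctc
Hsph1: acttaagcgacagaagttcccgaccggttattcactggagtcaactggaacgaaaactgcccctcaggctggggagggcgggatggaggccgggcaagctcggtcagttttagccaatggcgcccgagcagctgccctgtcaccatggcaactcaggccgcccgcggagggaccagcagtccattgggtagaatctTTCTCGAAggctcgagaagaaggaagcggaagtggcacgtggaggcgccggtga
Among the 12 measured members with a core, which include Hspa1a and Hspa1b, the median difference in PTX against LPS was -0.51, with 10 of 12 below 0, and among the 37 without one it was -0.05, with 20 below 0. In PTX against PBS the medians were -0.09 with a core and -0.09 without, and in LPS against PBS 0.12 and -0.08. Of all 12299 measured genes 5354 lay below 0 in PTX against LPS. The 12 are not separate sequences, since Hspa1a and Hspa1b have nearly the same window and Hspd1 and Hspe1 share a stretch. The split was read as deposited only, and the part of the core in these differences was not tested.

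PTX against PBS asks which members differed after PTX. Of the 60 measured members other than Hspa1a none was at least 2-fold higher, against 3.04% of all measured genes, and 2 were at least 2-fold lower, namely Hspa1b and Dnajc5b, against 2.37%. The remaining 58 were within 2-fold. By probe set, 0 of 137 measured member probe sets were higher (2.76% of all measured probe sets) and 5 were lower (2.19%). These 5 were the probe sets of Hspa1a, Hspa1b and Dnajc5b. The median of the 60 members was -0.10 beside 0.01 over all measured genes. Of the 22 Hsp genes, Hspa1a included, 16 lay below 0 (median -0.25), and of the 39 Dnaj genes 21 did (median -0.03). Of all 12299 measured genes 6060 did.

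LPS against PBS asks the same of a Toll-like receptor 4 ligand. None of the 60 members was at least 2-fold higher, where 6.50% of all measured genes were, and 4 were at least 2-fold lower (Dnajb14, Dnajc5b, Dnajc21 and Hspa1b), where 13.0% of all were. The median of the 60 members was 0.01 beside -0.08 over all measured genes. By probe set, 4 of 137 were higher and 22 lower, against 6.23% and 16.3% of all measured probe sets.

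In PTX against LPS 4 of the 60 members were at least 2-fold higher (Dnajb14, Dnajc13, Dnajc21 and Hspb11), against 13.7% of all measured genes. Hsph1 was the 1 member at least 2-fold lower, against 6.24%. By probe set, 17 of 137 were higher and 9 lower, against 17.3% and 6.22%. The median of the 60 members was -0.15 beside 0.09 over all measured genes. Of the 22 Hsp genes 18 lay below 0, with a median of -0.34, beside 5354 of all 12299 measured genes.

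Counts that involve the LPS array depended on the scaling, because the array medians differed. The median of all measured genes in LPS against PBS was -0.08 as deposited, 0.31 with each array centred on its median and 0.11 with quantile normalization. The numbers of all genes at least 2-fold higher and lower were 799 and 1601 as deposited, 1620 and 1017 with median centring, and 989 and 1182 with quantile normalization. With median centring 3 members (Dnajc12, Dnajb13 and Hspe1) were at least 2-fold higher in LPS against PBS and 4 were lower. In PTX against LPS, without Hspa1a, 1 member (Dnajb14) was then higher and 10 were lower, whereas Dnajc13, Dnajc21 and Hspb11 were no longer past 2-fold. The 10 were Hsph1, Hspa1b, Hsp90aa1, Hspa9, Hspd1, Hspe1, Dnajb4, Dnajb13, Dnajc12 and Dnajc24, and of all 12483 genes then measured 1042 were higher and 1754 lower. With quantile normalization 2 members were higher and 3 lower, beside 1224 and 1077 of all genes, and as deposited 1681 and 767 of all genes were. Relative to the median of all measured genes, Hsp genes in PTX against LPS lay at -0.43 as deposited, -0.41 with median centring and -0.27 with quantile normalization. In PTX against PBS they lay at -0.26, -0.25 and -0.23. For Dnaj genes in PTX against LPS the same figure was -0.16, -0.14 and 0.02, so its sign turned with quantile normalization, as did those of Hsp genes (0.20, 0.17 and -0.07) and Dnaj genes (0.06, 0.06 and -0.10) in LPS against PBS.

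**Figure D2:**
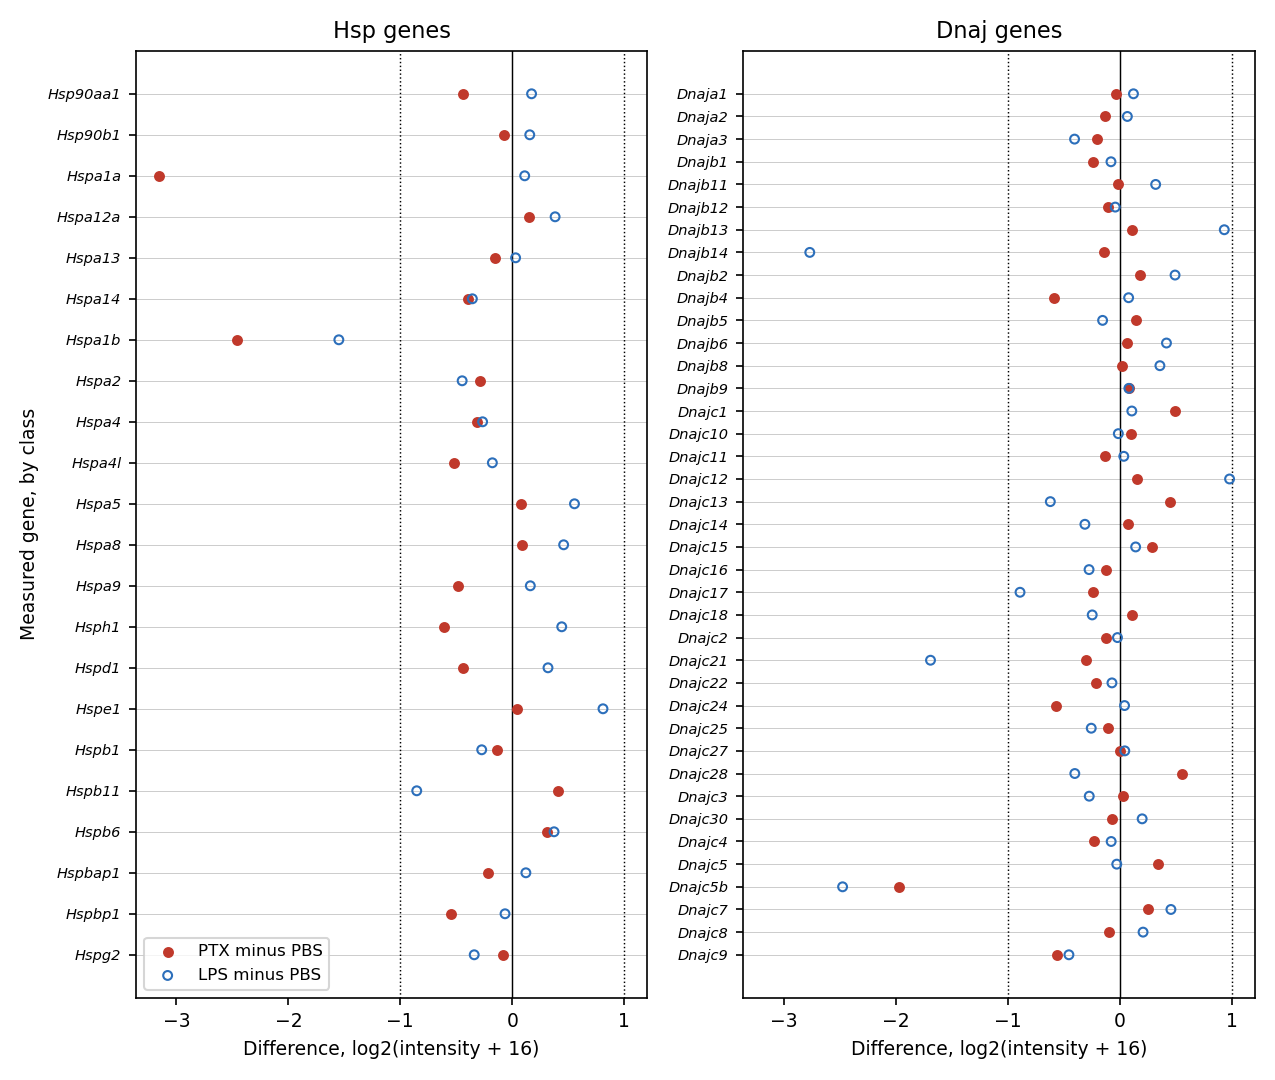
Differences in log2(intensity + 16) for the 22 Hsp genes (left) and 39 Dnaj genes (right) that were measured, with PTX minus PBS as filled points, LPS minus PBS as open points and dotted lines at 2-fold. Hspa1a, Hspa1b and Dnajc5b lie far to the left in PTX minus PBS. Dnajb14, Dnajc5b, Dnajc21 and Hspa1b do so in LPS minus PBS, and most other points lie between the dotted lines.

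Hsp90 proteins mature kinases, receptors and transcription factors. Hsp90ab1 had no probe set with that symbol alone and is not covered. Hsp90aa1, the inducible cytosolic form, read 3057 (PTX), 4681 (LPS) and 4150 (PBS), a difference of -0.44 in PTX against PBS and 0.17 in LPS against PBS. This probe set was lowest on the PTX array and within 2-fold as deposited, but in PTX against LPS it was past 2-fold with median centring (-1.02). Its 5 probe sets all lay below 0 in PTX against PBS, but in LPS against PBS they ran from -4.76 to 0.74, and 2 of them were lowest on the LPS array. Hsp90b1, the ER form that folds Toll-like receptors and integrins, read 4558 (PTX), 5363 (LPS) and 4809 (PBS), which were close to each other. Its other probe set differed by -1.47 in LPS against PBS, against 0.16 for the chosen one.

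The chosen probe sets of the constitutive Hsp70 genes were within 2-fold as deposited. Hspa8, the constitutive cytosolic Hsc70, read 7543 (PTX), 9740 (LPS) and 7079 (PBS), and Hspa5, the ER Hsp70 known as BiP, read 5933 (PTX), 8277 (LPS) and 5623 (PBS). Both were highest on the LPS array, by 0.46 and 0.56 against PBS, and near the PBS level on the PTX array (0.09 and 0.08). Their other probe sets did not all do so in LPS against PBS, where those of Hspa8 ran from -0.46 to 0.82 and those of Hspa5 were at 0.29 and -0.16. The other Hspa8 probe sets also ran from -0.57 to 0.15 in PTX against PBS and from -1.39 to 0.59 in PTX against LPS. Hspa9, the mitochondrial Hsp70 that pulls imported proteins into the matrix, read 842 (PTX), 1324 (LPS) and 1182 (PBS) and was lowest on the PTX array (-0.48 against PBS). Its other probe sets differed by 0.20 to 2.39 in LPS against PBS. Hspa13 of the ER (-0.15 in PTX and 0.03 in LPS against PBS), the ribosome-associated Hspa14 (-0.40 and -0.36) and the testis-enriched Hspa2 (-0.29 and -0.45) were within 2-fold. Hspa12a, a distant relative, differed by 0.15 and 0.38 in the same comparisons.

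The Hsp110 proteins, nucleotide exchange factors for Hsp70, were lower on the PTX array than on the PBS array in the chosen probe sets of all 3 measured genes. Hsph1 read 622 (PTX), 1304 (LPS) and 955 (PBS), with differences of -0.61 in PTX against PBS, 0.44 in LPS against PBS and -1.05 in PTX against LPS. Its second probe set gave -0.67, 0.82 and -1.49, in the same directions. Hspa4l read 343 (PTX), 440 (LPS) and 500 (PBS), and Hspa4 read 1286 (PTX), 1329 (LPS) and 1600 (PBS). Their differences in PTX against PBS were -0.52 and -0.31, within 2-fold. Another Hspa4 probe set went the other way in PTX against PBS (0.22) and was at -2.05 in LPS against PBS, and another Hspa4l probe set was at -1.20 in LPS against PBS. Hspbp1, another exchange factor of Hsp70, differed by -0.55 in PTX and -0.06 in LPS against PBS.

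The mitochondrial chaperonin is built from Hspd1 (Hsp60), the folding barrel, and Hspe1 (Hsp10), its lid. Hspd1 read 1695 (PTX), 2884 (LPS) and 2308 (PBS), and Hspe1 read 2347 (PTX), 4008 (LPS) and 2278 (PBS). Both were highest on the LPS array and within 2-fold of the PBS array, by 0.32 and 0.81 in LPS against PBS. In PTX against LPS they lay at -0.76 and -0.77. In PTX against PBS Hspd1 differed by -0.44 and Hspe1 by 0.04. The second Hspe1 probe set was at 1.41 in LPS against PBS, past 2-fold.

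Small heat shock proteins hold unfolded clients without ATP. Hspb1 read 119 (PTX), 107 (LPS) and 133 (PBS), and Hspb6 read 75.6 (PTX), 79.7 (LPS) and 57.8 (PBS), so both were near the level for a measured gene. Hspb11, named with this family but known as a subunit of the intraflagellar transport complex, read 593 (PTX), 239 (LPS) and 444 (PBS). It was lowest on the LPS array, at -0.85 in LPS against PBS and 1.26 in PTX against LPS, and its other probe set did not reach the measured level. Hspg2, which encodes the matrix proteoglycan perlecan and is no chaperone, was picked up by its symbol and differed by -0.08 in PTX and -0.34 in LPS against PBS. Hspbap1 differed by -0.22 and 0.12, with another probe set at -0.04 and -1.87.

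Type A DnaJ proteins are the closest relatives of bacterial DnaJ. Dnaja1 read 2598 (PTX), 2898 (LPS) and 2658 (PBS), and Dnaja2 read 2447 (PTX), 2819 (LPS) and 2686 (PBS), which were nearly level over the arrays. Another Dnaja2 probe set was not, at -1.42 in LPS against PBS and 1.41 in PTX against LPS, and another Dnaja1 probe set was at 0.67 in LPS against PBS. Dnaja3, the mitochondrial member, differed by -0.20 in PTX and -0.40 in LPS against PBS.

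Type B members include the inducible partner of Hsp70, Dnajb1 (Hsp40), which read 719 (PTX), 804 (LPS) and 848 (PBS). It differed by -0.23 in PTX and -0.08 in LPS against PBS, so it did not share the size of the Hspa1a difference. Dnajb4, a cytosolic relative, read 400 (PTX), 644 (LPS) and 608 (PBS), at -0.58 in PTX against PBS, and its other measured probe set was at -0.61. Dnajb6, which suppresses aggregation, read 2149 (PTX), 2756 (LPS) and 2057 (PBS). In LPS against PBS all 4 of its probe sets lay between 0.39 and 0.87. Dnajb13, a protein of sperm and cilia, read 57.4 (PTX), 114 (LPS) and 52.1 (PBS) and passed the measured level only with LPS. Dnajb2, Dnajb5 and Dnajb8 stayed within 2-fold, between -0.15 and 0.50 in LPS and between 0.02 and 0.18 in PTX, each against PBS.

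Dnajb14 encodes a DnaJ protein of the ER membrane. It read 876 (PTX), 128 (LPS) and 966 (PBS), and its other probe set read 461 (PTX), 184 (LPS) and 432 (PBS). Both probe sets were low on the LPS array alone, at -2.77 and -1.16 in LPS against PBS and -0.14 and 0.09 in PTX against PBS. Dnajb12, its paralog in the same membrane, differed by -0.04 in LPS against PBS, with its other probe set at -0.90.

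Type C members share only the J domain. Dnajc5b, a paralog of the vesicle-associated cysteine string protein Dnajc5, read 49.3 (PTX), 30.2 (LPS) and 241 (PBS). Only the PBS reading passed the measured level, and the differences were -1.97 in PTX and -2.47 in LPS against PBS, and had 1 probe set. Dnajc5 itself read 1792 (PTX), 1382 (LPS) and 1407 (PBS) and stayed within 2-fold, at 0.35 and -0.03. Among its other probe sets 2 were at least 2-fold lower in LPS against PBS (-1.10 and -1.03).

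Dnajc21, which takes part in ribosome assembly, read 572 (PTX), 208 (LPS) and 708 (PBS), and Dnajc13, a protein of endosomal sorting also called RME-8, read 1352 (PTX), 636 (LPS) and 985 (PBS). Both were lowest on the LPS array. Dnajc21 differed by -1.69 in LPS against PBS, with its 2 other measured probe sets at -1.45 and -0.17. Dnajc13 differed by -0.62 in LPS against PBS and by 1.07 in PTX against LPS, and its second probe set by -1.51 and 2.13. Dnajc2, which sits on ribosomes as well, differed by -0.02 in LPS against PBS in its chosen probe set and by -1.70 in another.

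The chosen probe sets of the other type C genes were within 2-fold in each comparison as deposited. Dnajc12 read 672 (PTX), 1206 (LPS) and 602 (PBS), close to the limit at 0.98 in LPS against PBS. Dnajc17, a spliceosome-associated member, differed by -0.89 in LPS against PBS, with another probe set at 0.62. Dnajc8, also found with the spliceosome, read 2776 (PTX), 3427 (LPS) and 2961 (PBS). Dnajc15 of mitochondria read 2008 (PTX), 1819 (LPS) and 1645 (PBS), and Dnajc7, which binds both Hsp70 and Hsp90, read 1677 (PTX), 1936 (LPS) and 1404 (PBS). The histone chaperone gene Dnajc9 was lower than PBS in both stimuli, at -0.56 in PTX and -0.45 in LPS, within 2-fold.

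ER members are described together because several of them are known to be induced by ER stress. Of 10 measured members placed in the ER none was at least 2-fold apart by its chosen probe set in PTX against PBS (median 0.01), where 3.04% of all genes were higher and 2.37% lower. In LPS against PBS only Dnajb14 was (median 0.06), where 6.50% were higher and 13.0% lower, so with so few genes both counts are near those shares. Dnajb9, an ER DnaJ protein induced by the unfolded protein response, read 1367 (PTX), 1364 (LPS) and 1287 (PBS), and Dnajb11, a cofactor of BiP, read 1664 (PTX), 2110 (LPS) and 1684 (PBS). Dnajc3, Dnajc10 and Dnajc1, further partners of BiP, differed by 0.03, 0.11 and 0.50 in PTX against PBS and by -0.27, -0.01 and 0.11 in LPS against PBS. Another Dnajc3 probe set read 1558 (PTX), 575 (LPS) and 1825 (PBS), at -1.64 in LPS against PBS. The 7 measured mitochondrial members had medians of -0.13 in PTX against PBS and 0.16 in LPS against PBS.

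The ER stress element, searched as CCAAT and CCACG with 9 bases between them on either strand, was found in 3 member genes (Hspa5, Hsp90b1 and Dnajc3), in 3.90% of member windows and in 0.113% of all windows. The windows of the first 2 are shown because these are the ER Hsp70 and Hsp90, with the element in capitals. That of Hspa5 lies at chr2:34771840-34772089, plus strand, and that of Hsp90b1 at chr10:86705445-86705694, minus strand.
Hspa5: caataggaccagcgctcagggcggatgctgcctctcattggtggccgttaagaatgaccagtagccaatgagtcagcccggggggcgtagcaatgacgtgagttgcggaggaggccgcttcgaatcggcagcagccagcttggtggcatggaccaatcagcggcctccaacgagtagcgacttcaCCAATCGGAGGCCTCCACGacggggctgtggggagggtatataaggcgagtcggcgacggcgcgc
Hsp90b1: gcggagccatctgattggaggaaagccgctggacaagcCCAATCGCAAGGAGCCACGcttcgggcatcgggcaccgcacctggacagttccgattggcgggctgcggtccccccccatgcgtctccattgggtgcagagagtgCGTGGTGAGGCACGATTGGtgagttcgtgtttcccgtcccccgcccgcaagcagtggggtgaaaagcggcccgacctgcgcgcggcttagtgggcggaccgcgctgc
Beside the Hspa5 values above, the Hsp90b1 differences were -0.08 in PTX and 0.16 in LPS against PBS.

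Genes that work with these chaperones were read from lists chosen by role. Beside their counts stand the shares of all measured genes at least 2-fold higher and lower, which were 6.50% and 13.0% in LPS against PBS, 3.04% and 2.37% in PTX against PBS, and 13.7% and 6.24% in PTX against LPS. Of 16 measured Hsp90 cochaperones 1 was at least 2-fold higher and none lower in LPS against PBS (median 0.26), and 1 was lower and none higher in PTX against PBS (median -0.12), counts near those shares. The gene was Fkbp5 both times, an Hsp90-binding immunophilin that glucocorticoids induce. It read 144 (PTX), 715 (LPS) and 340 (PBS), at -1.15 in PTX against PBS and 1.04 in LPS against PBS. Stip1, the adaptor that links Hsp70 to Hsp90, read 495 (PTX), 1162 (LPS) and 700 (PBS), at -1.20 in PTX against LPS. In that comparison 2 of 16 were lower (Fkbp5 and Stip1) and Cdc37l1 was higher (1.15).

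Of 17 measured Hsp70 cochaperones Hyou1, an ER exchange factor for BiP, was higher (1.37) and Bag2, an inhibitor of client ubiquitination, was lower (-1.07) in LPS against PBS, and none was 2-fold apart in PTX against PBS. Their medians were 0.20 and -0.06. Of 14 measured genes of the cytosolic chaperonin CCT and its partner prefoldin none was 2-fold apart against PBS in either stimulus. Their medians were 0.35 in LPS and -0.24 in PTX, with 10 of 14 above 0 in LPS and 12 of 14 below 0 in PTX. Of all 12299 measured genes 5416 were above 0 in LPS and 6060 below 0 in PTX. The figure for LPS depended on the scaling, with 8707 of 12483 genes above 0 after median centring. In PTX against LPS 4 of the 14 were at least 2-fold lower, namely Pfdn6 (-1.21), Tcp1 (-1.13), Cct3 (-1.12) and Pfdn4 (-1.06). Of 22 measured ER stress genes 3 were higher in LPS against PBS (Hyou1, Sdf2l1 1.14 and Pdia4 1.02) and none lower (median 0.31), and none was 2-fold apart in PTX against PBS (median 0.00). In PTX against LPS 5 of the 22 were lower, led by Hyou1 (-1.50) and Pdia4 (-1.46), and Ern1, the kinase that senses ER stress, was higher (1.20). Hsbp1, a small protein that binds Hsf1, differed by 0.07 in PTX and 0.57 in LPS against PBS. Hsf1 itself had no probe set with that symbol alone and was not read.

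**Figure D3:**
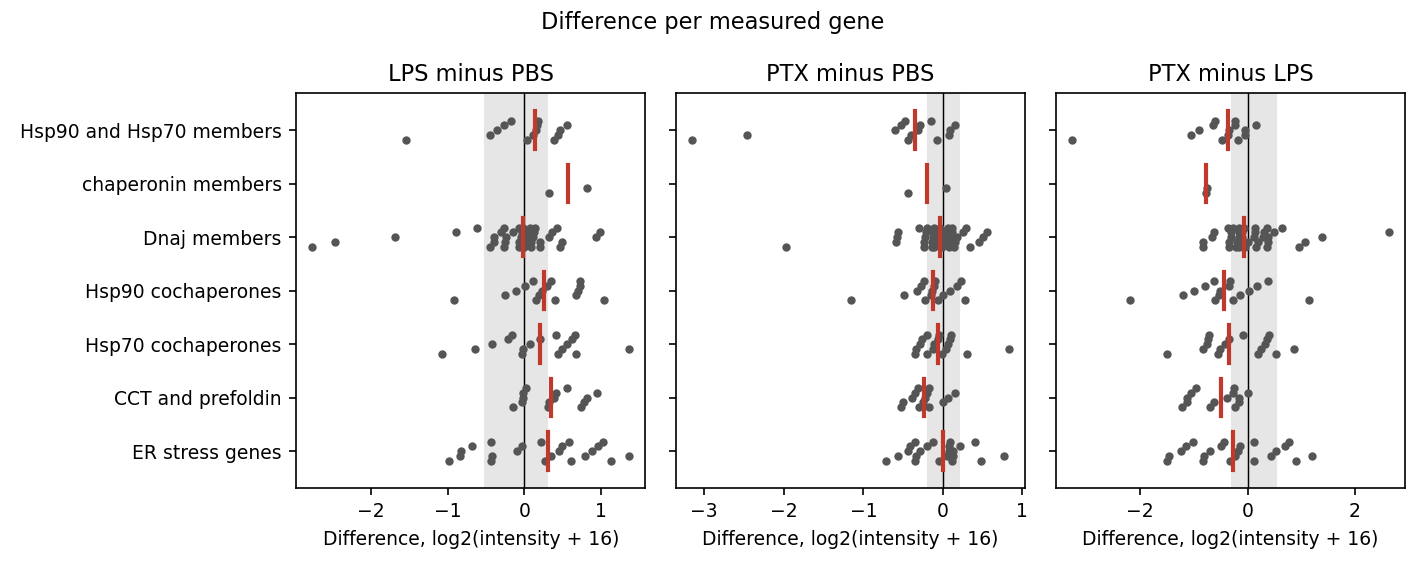
Differences in log2(intensity + 16) for each measured gene of 3 member groups and 4 lists, with LPS minus PBS, PTX minus PBS and PTX minus LPS in the panels from left to right. Red bars are medians and the grey band spans the middle 50% of all measured genes. In PTX minus LPS the medians lie left of the band for all groups except the Dnaj members (-0.07) and the ER stress genes (-0.27), which lie within it.

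Probe sets of the same member agreed more closely in PTX against PBS than in comparisons with the LPS array. Of 38 members with several measured probe sets all 38 had a spread under 2-fold in PTX against PBS (96.1% of 5519 genes), with a median spread of 0.20. In LPS against PBS 21 of 38 did (55.3%, and 62.2% of all 5519 genes), with a median spread of 0.82. The widest members in LPS against PBS were Hsp90aa1 and Dnajc1, whose 5 measured probe sets ran from -3.77 to 1.12. Among members past 2-fold in that comparison, the other measured probe sets of Hspa1b (2 of 2) and Dnajb14 (1 of 1) were past 2-fold the same way, as was 1 of 2 for Dnajc21.

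**Figure D4:**
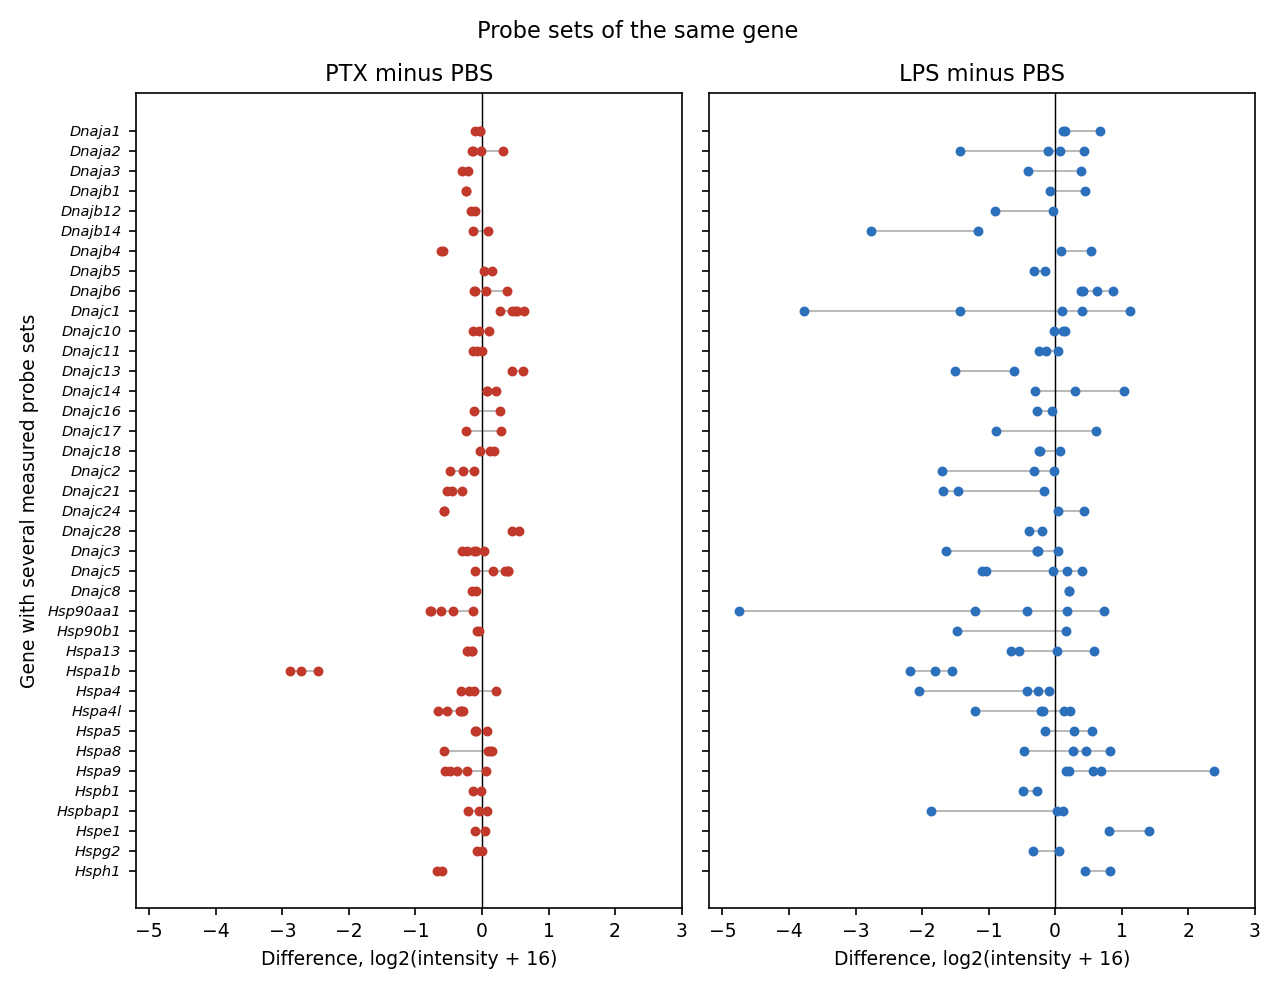
Difference in log2(intensity + 16) of each measured probe set (point) for the 38 members with several, joined by a grey line per gene, with PTX minus PBS on the left and LPS minus PBS on the right. The points of a gene lie close together on the left, while on the right the lines of Hsp90aa1 (-4.76 to 0.74), Dnajc1 (-3.77 to 1.12) and other genes are long.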

How the data were processed

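Gene expression was measured on 3 Affymetrix arrays, 1 per treatment, from 3 µg of total RNA labelled with biotin, per the labels' protocols. Each deposited value is a linear intensity of a probe set, none below 1. For the probe summary, background correction, scaling and genome build the method is not given in the sources used here.

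Intensities were used as deposited, a pseudocount of 16 was added and log2 taken with pandas 2.3.3 under Python 3.11.15. The 64 control probe sets and those with several or no symbols were left out, which kept 34945. A gene was called at 2-fold, and the calculation was run on simulated data. These had large changes, little noise, the same change in all probe sets of a gene and arrays on a single scale. The run therefore checked the arithmetic and could not test how reliable calls are on the real arrays. The 3 comparisons have no test and no p-value. The members, the 14 gene lists and the classes were chosen with earlier results of these data known. Named were all members past 2-fold, the 3 of highest mean value per class, all measured Hsp70, Hsp90 and chaperonin members up to 4 genes per list with the largest differences and the 5 genes nearest to Hspa1a, and other members named beside them were chosen after their values were seen. Promoter windows are RefSeq's, of GRCm38.p6. Alternatives changed the pseudocount, the scaling, the filter, the gene value and the probe sets used.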

Additional observations from a re-analysis of the deposited data

How the results depend on the processing

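No paired analysis was possible because each treatment had 1 array. For Hspa1a the difference kept its direction under all 8 alternatives in PTX against PBS and in PTX against LPS, and a pseudocount of 64 moved it to -2.29 and -2.39. The number of members other than Hspa1a at least 2-fold apart moved with centring on the array medians, to 7 in LPS against PBS (4 as deposited) and to 11 in PTX against LPS (5 as deposited). All genes at least 2-fold higher and lower then numbered 1620 and 1017 of 12483 in LPS against PBS, and 1042 and 1754 in PTX against LPS. In PTX against PBS it moved to 1 (2 as deposited) with the filter at the 75th percentile and to 1 without Hspa1b, an alternative chosen after the values were seen. The median of these members in LPS against PBS, 0.01 as deposited, ran from -0.12 with the mean of all probe sets to 0.38 with median centring, whereas it stayed below 0 under every alternative in PTX against PBS (-0.14 to -0.06) and in PTX against LPS (-0.53 to -0.04). For the 7 other named members 5 of 165 values moved by over 1.5-fold and none reversed. Many values could not move, which limits what these counts show. The filter at the 75th percentile left out Dnajc5b, which thus has no value there. Otherwise the filters and leaving out probe sets ending in _x_at or _s_at kept the chosen probe sets of these members and of Hspa1a. Averaging could not change Hspa1a or Dnajc5b either, which had 1 probe set each. With the mean of all probe sets Dnajc21 was at -0.69 in LPS against PBS, no longer past 2-fold. Readings under the measured level, such as Hspa1a on the PTX array, limit the size of a difference.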

Other observations

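Dnajc19, a subunit of the mitochondrial import motor, was read only by 3 probe sets that the annotation shares with the pseudogene Dnajc19-ps, so it is not counted among the members. They read 442, 46.2 and 504 on the PTX array, 569, 39.5 and 219 on the LPS array, and 587, 37.2 and 338 on the PBS array, in the same order of probe sets. The first was lowest on the PTX array and the third on the LPS array, so the probe sets did not move together.

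Over the 3 arrays the measured genes whose pair of differences from PBS lay nearest to that of Hspa1a were Rnd3 (a distance of 0.79 on the log2 scale), Ccl17 (0.81), F13a1 (0.84), Cd24a (0.95) and Car4 (0.96). All 5 were low on the PTX array and within 2-fold of the PBS reading on the LPS array, which follows from how they were picked. For example F13a1, the gene of the coagulation factor XIII A chain, read 141 (PTX), 677 (LPS) and 813 (PBS). Hspa1b was not among the 5.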
